A study of Mus musculus with 9 samples.

Results

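The Bcl2 family members described here are 10 genes of the 31053 in the deposited matrices: Bbc3, Bcl2l11, Bid, Bcl2, Bcl2l1, Mcl1, Bcl2a1b, Bcl2a1d, Bax and Bak1. They were taken by their gene names, whatever their values, and each name matched 1 row in each of the 3 RNA libraries. The mutant thymocytes were from mice whose CD3ε, which signals for the T cell receptor (TCR), had the I173A substitution, and their reference was thymocytes of wild-type (WT) mice. All were adult females, per the labels, and neither the number of mice nor their exact age, strain or zygosity is given in the sources used here. Before sorting, I173A cells were stained with hashtag 6 and WT cells with hashtag 4, antibodies that carry an oligonucleotide barcode, and the cells were then sorted on surface CD4 and CD8. The gates were CD4 single-positive (CD4 SP), CD8 single-positive (CD8 SP) and double-positive (DP), the stage that carries both coreceptors and precedes the other two. Each gate went into a single 10x Genomics 5′ library that held both genotypes, so each genotype had 1 sample per gate.

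The Bcl2 family controls the mitochondrial route of apoptosis. BH3-only proteins, among them PUMA (Bbc3), BIM (Bcl2l11) and BID, respond to stress or strong receptor signals. Antiapoptotic proteins, among them BCL-2, BCL-XL (Bcl2l1), MCL-1 and A1 (the Bcl2a1 genes), bind and restrain them, and the effectors BAX and BAK open the outer mitochondrial membrane. In the thymus BIM and PUMA are known from mouse knockouts for the deletion of self-reactive thymocytes, BCL-XL for keeping DP cells alive while they rearrange the TCR α chain, and BCL-2 for the survival of single-positive cells.

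The CD4 SP gate gave 2664 I173A and 3109 WT cells, the CD8 SP gate 2872 I173A and 3017 WT cells, and the DP gate 2706 I173A and 2516 WT cells. Summed counts of unique molecular identifiers (UMIs, each standing for 1 captured RNA molecule) lay between 8659807 in I173A DP and 22544044 in WT CD8 SP cells. Levels are given as UMIs per 1000000 UMIs of the group (CPM) with exact 95% Poisson intervals, and differences as ratios of CPM with exact 95% intervals. Both kinds of interval hold counting error alone. Since each gate had a single sample of each genotype, the differences have no replicate check or test, and "higher" and "lower" describe these libraries. The gates carried their defining genes: Zbtb7b, the CD4 lineage factor, was at 97.1 CPM in I173A and 108 CPM in WT CD4 SP cells and under 2 CPM in the other gates. Nkg7, a cytotoxic lineage gene, was at 673 and 516 CPM in I173A and WT CD8 SP cells, and Rag1, a recombinase gene, at 1232 and 1049 CPM in I173A and WT DP cells. Cd3e itself was at 1443 and 1343 CPM in I173A and WT CD4 SP cells, 1440 and 1197 CPM in I173A and WT CD8 SP cells and 1757 and 1366 CPM in I173A and WT DP cells, and gene counts cannot show the substitution. Cycling cells made up 1.88% of I173A and 1.87% of WT CD4 SP cells, 7.14% of I173A and 12.6% of WT CD8 SP cells, and 4.03% of I173A and 13.5% of WT DP cells. In the CD8 SP gate they held 14.7% of I173A and 28.4% of WT UMIs, and in the DP gate 12.2% of I173A and 34.6% of WT UMIs, so ratios are also given without them where they moved. These are the clusters that passed as cycling-like. Unnamed clusters 11, 14 and 20, which had Ung among their leading genes (beside Mcm3 and Mcm5 in cluster 11 and Cdc6 in cluster 14, all genes of DNA replication or repair), stay in those values. Cluster 14 held 2.74% of I173A and 7.30% of WT UMIs in the CD8 SP gate, and 2.96% of I173A and 6.66% of WT UMIs in the DP gate. Ratios that moved further when clusters 11, 14 and 20 were left out as well, a choice made after seeing the data, are given so. The libraries shared 124 barcodes between CD4 SP and CD8 SP, 109 between CD4 SP and DP and 109 between CD8 SP and DP; where both had a hashtag, it was the same in 35 of 107, 37 of 100 and 34 of 99.

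Among the BH3-only genes, Bbc3 and Bcl2l11 were higher in I173A CD4 SP and CD8 SP cells. Promoter sequences are shown for this pair, and for the A1 pair, which are copies of each other. Each line gives the 250 bases before a RefSeq transcript start on the GRCm38.p6 build, 5′ to 3′ on the gene's strand, with motif matches in capitals.
Bbc3, chr7:16309333-16309582, plus strand: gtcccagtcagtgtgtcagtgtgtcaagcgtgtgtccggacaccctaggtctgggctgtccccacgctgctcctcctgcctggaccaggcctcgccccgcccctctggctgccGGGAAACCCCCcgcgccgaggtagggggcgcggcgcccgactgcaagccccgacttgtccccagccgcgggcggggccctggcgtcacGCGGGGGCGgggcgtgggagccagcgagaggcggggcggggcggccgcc
Bcl2l11, chr2:128125788-128126037, plus strand: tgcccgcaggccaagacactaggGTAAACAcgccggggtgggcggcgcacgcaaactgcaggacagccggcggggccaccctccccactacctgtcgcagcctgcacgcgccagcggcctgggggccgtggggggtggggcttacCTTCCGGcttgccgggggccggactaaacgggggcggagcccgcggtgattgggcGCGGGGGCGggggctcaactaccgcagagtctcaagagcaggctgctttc
Bcl2a1b, chr9:89199023-89199272, plus strand: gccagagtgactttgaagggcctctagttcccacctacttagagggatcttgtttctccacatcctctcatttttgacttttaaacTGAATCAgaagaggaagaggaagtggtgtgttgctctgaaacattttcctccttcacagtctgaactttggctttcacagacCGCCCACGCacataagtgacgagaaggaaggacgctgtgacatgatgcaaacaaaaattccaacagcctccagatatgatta
Bcl2a1d, chr9:88731851-88732100, minus strand: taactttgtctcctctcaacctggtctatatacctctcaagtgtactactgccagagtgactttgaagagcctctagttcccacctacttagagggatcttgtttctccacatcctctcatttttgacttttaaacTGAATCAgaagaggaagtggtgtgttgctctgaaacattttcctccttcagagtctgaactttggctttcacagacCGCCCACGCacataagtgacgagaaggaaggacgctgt
The motifs searched on both strands were the NF-kB consensus, AP-1 (TGANTCA), CRE (TGACGTCA), FOXO (GTAAACA), NBRE (AAAGGTCA), ETS (CCGGAAG), E-box (CACGTG) and EGR (GCGNGGGCG). In the Bbc3 window, 2 NF-kB matches that overlapped each other began 137 and 136 bases before the start, and an EGR match 49 bases before it. The Bcl2l11 window held a FOXO match, an ETS match and an EGR match, none of which overlapped, and these began 227, 105 and 50 bases before the start. RefSeq lists further starts, not shown: a window of Bcl2l11 with no match, and 2 of Bbc3, one with a FOXO and an EGR match and the other with an E-box. Both A1 windows held 1 AP-1 and 1 EGR match. In a local alignment of the pair that allowed gaps, 198 of 200 aligned bases, in 2 blocks, were identical (99%). Bases in the gap between the blocks and outside the alignment are not in that count. Of 32851 mouse promoter windows of this length, 7.25% held the NF-kB consensus, 6.75% AP-1, 3.17% FOXO, 6.91% ETS and 4.70% EGR. A match describes the letters in the window and is not evidence that a factor binds there.

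Bbc3 encodes PUMA, a BH3-only protein known as a target of p53 and of FOXO factors (chr7:16308398-16318334). It was at 26.5 CPM in I173A and 13.4 CPM in WT CD4 SP cells, at 11.7 and 6.92 CPM in I173A and WT CD8 SP cells, and at 31.3 and 25.9 CPM in I173A and WT DP cells. The I173A level was above the WT level in all 3 gates, and the counting intervals of the genotypes were apart in both SP gates (in CD4 SP, 24.1 to 29.1 against 11.9 to 15.1 CPM). The ratio of I173A to WT was 1.98 (1.70 to 2.31) for CD4 SP, 1.70 (1.37 to 2.10) for CD8 SP and 1.21 (1.02 to 1.44) for DP cells. Without cycling cells it was 1.99 in CD4 SP and 1.58 in CD8 SP cells, and in DP cells it lay on the other side of 1, at 0.959 (0.801 to 1.15). With clusters 11, 14 and 20 left out too, it was 1.65 in CD8 SP and 0.902 in DP cells.

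Bcl2l11 encodes BIM, the BH3-only protein best known for negative selection (chr2:128126038-128162547). Its level was 62.5 CPM in I173A and 47.0 CPM in WT CD4 SP cells, 30.6 and 24.8 CPM in I173A and WT CD8 SP cells, and 49.9 and 52.4 CPM in I173A and WT DP cells. I173A cells were therefore higher in both SP gates and close to WT in the DP gate. The ratio was 1.33 (1.22 to 1.45) for CD4 SP, 1.23 (1.09 to 1.39) for CD8 SP and 0.953 (0.837 to 1.08) in DP cells. Without cycling cells the DP ratio was 0.838 (0.729 to 0.962), while the CD4 SP and CD8 SP ratios were 1.33 and 1.18. Leaving out clusters 11, 14 and 20 as well gave 0.809 in DP and 1.16 in CD8 SP cells. Without the clusters in which over 2.5% of UMIs were mitochondrial, a choice made after seeing the data, the DP ratio was 1.07.

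Bid encodes a BH3-only protein that caspase-8 cleaves, which links death receptors to mitochondria (chr6:120893119-120917062). It was at 7.22 CPM in I173A and 7.06 CPM in WT CD4 SP cells, at 18.7 and 28.0 CPM in I173A and WT CD8 SP cells, and at 24.6 and 38.0 CPM in I173A and WT DP cells. With all cells it was lower in I173A, in the CD8 SP gate with a ratio of 0.666 (0.581 to 0.762) and in the DP gate with 0.647 (0.544 to 0.766). Leaving out cycling cells gave 0.878 (0.746 to 1.03) in CD8 SP cells and 0.664 (0.536 to 0.821) in DP cells. With clusters 11, 14 and 20 left out too, the CD8 SP ratio was on the other side of 1, at 1.11, and the DP ratio was 0.788. In the CD8 SP gate, cycling-like cluster 9 held 11.9% of the I173A and 44.3% of the WT Bid UMIs, beside 4.05% of all I173A and 19.04% of all WT UMIs. Cluster 14 held 8.81% of the I173A and 16.8% of the WT Bid UMIs of that gate. The WT cells of that gate also had more RNA of Rag1, a DP-stage gene, at 7.49 CPM in I173A and 26.7 CPM in WT cells. When both genotypes were given the same cluster shares, the CD8 SP ratio of Bid was 0.967 and the DP ratio 0.814.

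**Figure D1:**
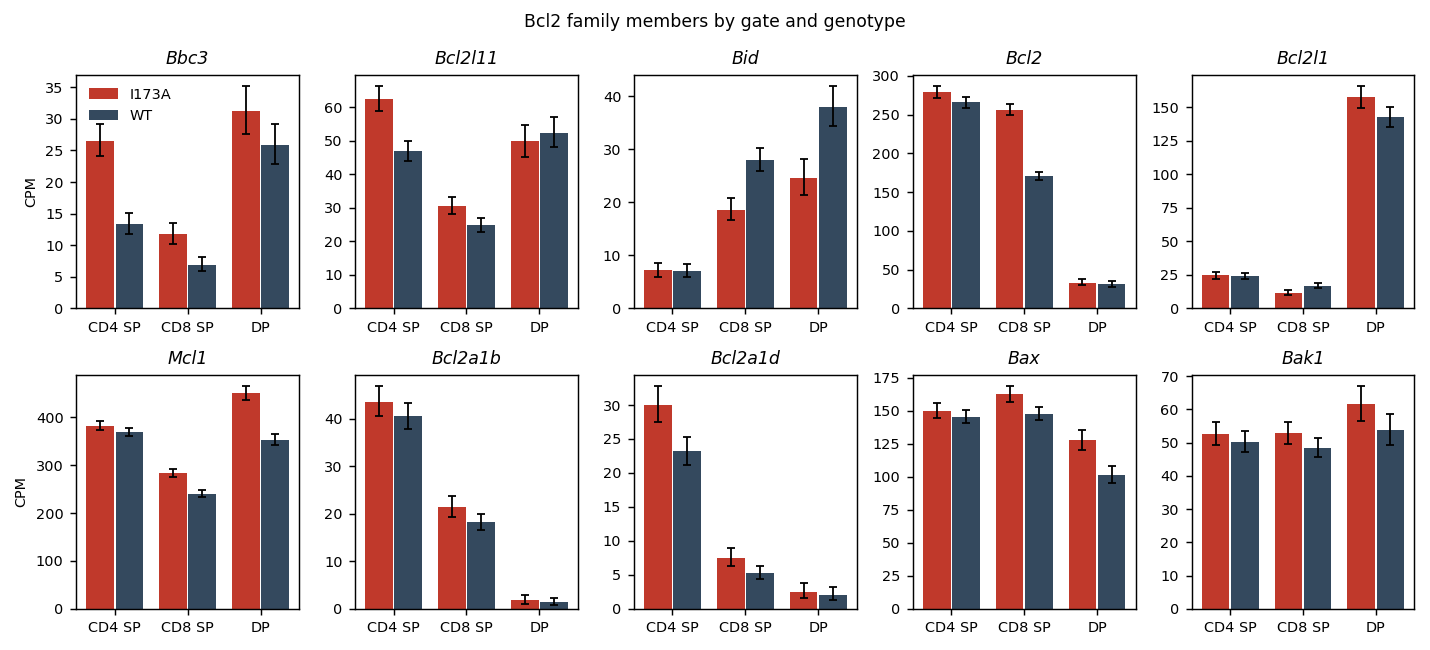
Level of each of the 10 members in CPM (bars from 0, with a scale for each gene) in the CD4 SP, CD8 SP and DP gates, I173A left of WT, with error bars for 95% Poisson intervals (counting error alone). Bcl2, Bcl2a1b and Bcl2a1d stand above DP in both SP gates, Bcl2l1 stands far below it, and Bbc3 is higher in I173A than in WT cells of both SP gates.

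Among the antiapoptotic members, Bcl2 was higher in I173A CD8 SP cells, and its level summed over each other gate was close to WT. Bcl2 encodes BCL-2 (chr1:106538176-106714290) and was at 279 CPM in I173A and 266 CPM in WT CD4 SP cells, at 256 and 170 CPM in I173A and WT CD8 SP cells, and at 33.4 and 31.5 CPM in I173A and WT DP cells. The CD8 SP ratio was 1.504 (1.44 to 1.57), against 1.05 (1.01 to 1.09) in CD4 SP and 1.06 (0.900 to 1.245) in DP cells; the difference between gates was not tested. Without cycling cells the CD8 SP ratio was 1.30 (1.24 to 1.36), without clusters 11, 14 and 20 as well 1.19, and with equal cluster shares 1.20. The DP ratio without cycling cells was 0.919, and 0.861 without those clusters as well.

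Bcl2l1 encodes BCL-XL (chr2:152758732-152833803), and its level was highest in DP cells. It was at 24.6 CPM in I173A and 24.3 CPM in WT CD4 SP cells, at 11.7 and 17.1 CPM in I173A and WT CD8 SP cells, and at 158 and 142 CPM in I173A and WT DP cells. I173A CD8 SP cells were lower, with a ratio of 0.684 (0.575 to 0.812), which without cycling cells was 0.833 with an interval that included 1 (0.679 to 1.02), and 0.9505 without clusters 11, 14 and 20 as well. The ratio was 1.01 (0.888 to 1.16) in CD4 SP and 1.11 (1.03 to 1.19) in DP cells, where it was 1.03 without cycling cells and 0.988 without those clusters as well. For each Bcl2l1 UMI there were 11.3 Bcl2 UMIs in I173A and 10.95 in WT CD4 SP cells, 21.95 in I173A and 9.98 in WT CD8 SP cells, and 0.212 in I173A and 0.221 in WT DP cells. Without cycling cells the CD8 SP values were 24.1 in I173A and 15.4 in WT cells. A UMI counts a molecule whatever its length, but the capture of the 2 transcripts may differ.

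Mcl1 encodes MCL-1, a short-lived protein that thymocytes need at several stages (chr3:95656944-95663179). It was at 383 and 369 CPM in I173A and WT CD4 SP cells, at 283 and 241 CPM in I173A and WT CD8 SP cells, and at 451 and 354 CPM in I173A and WT DP cells. The ratio was 1.28 (1.22 to 1.34) in DP, 1.18 (1.13 to 1.22) in CD8 SP and 1.04 (1.00 to 1.07) in CD4 SP cells. Without cycling cells, which carried less Mcl1 (120 CPM in cluster 9), the DP ratio was 1.10 and the CD8 SP ratio 1.06, and without clusters 11, 14 and 20 as well they were 1.06 and 1.00.

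Bcl2a1b (chr9:89199273-89207838) and Bcl2a1d (chr9:88723288-88731850) encode copies of A1, a protein induced by NF-kB in activated lymphocytes. The copies are known to be nearly identical, so how the authors' counting split their reads is uncertain; their transcripts were not compared here. Bcl2a1b was at 43.6 and 40.5 CPM in I173A and WT CD4 SP cells, at 21.4 and 18.2 CPM in I173A and WT CD8 SP cells, and at 1.85 and 1.38 CPM in I173A and WT DP cells, where it had 16 and 14 UMIs. Bcl2a1d was at 30.1 and 23.2 CPM in I173A and WT CD4 SP cells, at 7.49 and 5.23 CPM in I173A and WT CD8 SP cells, and at 2.54 and 2.08 CPM in I173A and WT DP cells. Both genes were higher in each SP gate than in the DP gate. The Bcl2a1d ratio was 1.30 (1.14 to 1.47) in CD4 SP and 1.43 (1.11 to 1.85) in CD8 SP cells, and 1.17 and 1.20 without cycling cells. Without clusters 11, 14 and 20 as well the CD8 SP ratio was 1.07, and with equal cluster shares it was below 1, at 0.967. The Bcl2a1b ratio was 1.08 (0.973 to 1.19) in CD4 SP and 1.18 (1.02 to 1.36) in CD8 SP cells, where it was 0.987 without cycling cells, 0.881 without clusters 11, 14 and 20 as well and 0.888 with equal cluster shares.

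Between gates, the effectors stayed under 2-fold in all comparisons. Bax, the effector that moves from the cytosol to mitochondria (chr7:45461695-45466903), was at 150 and 146 CPM in I173A and WT CD4 SP cells, at 163 and 148 CPM in I173A and WT CD8 SP cells, and at 128 and 101 CPM in I173A and WT DP cells. Bak1, the effector that resides there (chr17:27019812-27028627), was at 52.5 and 50.2 CPM in I173A and WT CD4 SP cells, at 52.7 and 48.4 CPM in I173A and WT CD8 SP cells, and at 61.5 and 53.8 CPM in I173A and WT DP cells. The largest difference was that of Bax in DP cells, with a ratio of 1.26 (1.16 to 1.37), or 1.11 (1.01 to 1.22) without cycling cells. The other Bax and Bak1 ratios lay between 1.03 and 1.14.

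Counted where they were at least 25% higher or 20% lower, at a mean of at least 5 CPM, 3 of 10 members were higher in I173A CD4 SP cells (Bbc3, Bcl2l11 and Bcl2a1d), where 5.00% of all genes were, and 0 were lower, where 2.08% were. In CD8 SP cells 3 of 10 were higher (Bbc3, Bcl2 and Bcl2a1d; 10.6% of all genes) and 2 lower (Bid and Bcl2l1; 10.9%). In DP cells the A1 genes were under the level counted, 2 of 8 members were higher (Mcl1 and Bax; 16.3%) and 1 was lower (Bid; 10.5%). Without cycling cells the counts were 2 higher in CD4 SP (Bbc3 and Bcl2l11; 5.17%), 2 higher (Bbc3 and Bcl2; 4.80%) and 0 lower (4.79%) in CD8 SP, and 0 higher (8.78%) and 1 lower (Bid; 5.77%) in DP cells. The median log2 ratio over the members was 0.07 for CD4 SP, 0.24 for CD8 SP and 0.17 for DP cells, against 0.04, 0.03 and 0.08 over all genes counted.

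**Figure D2:**
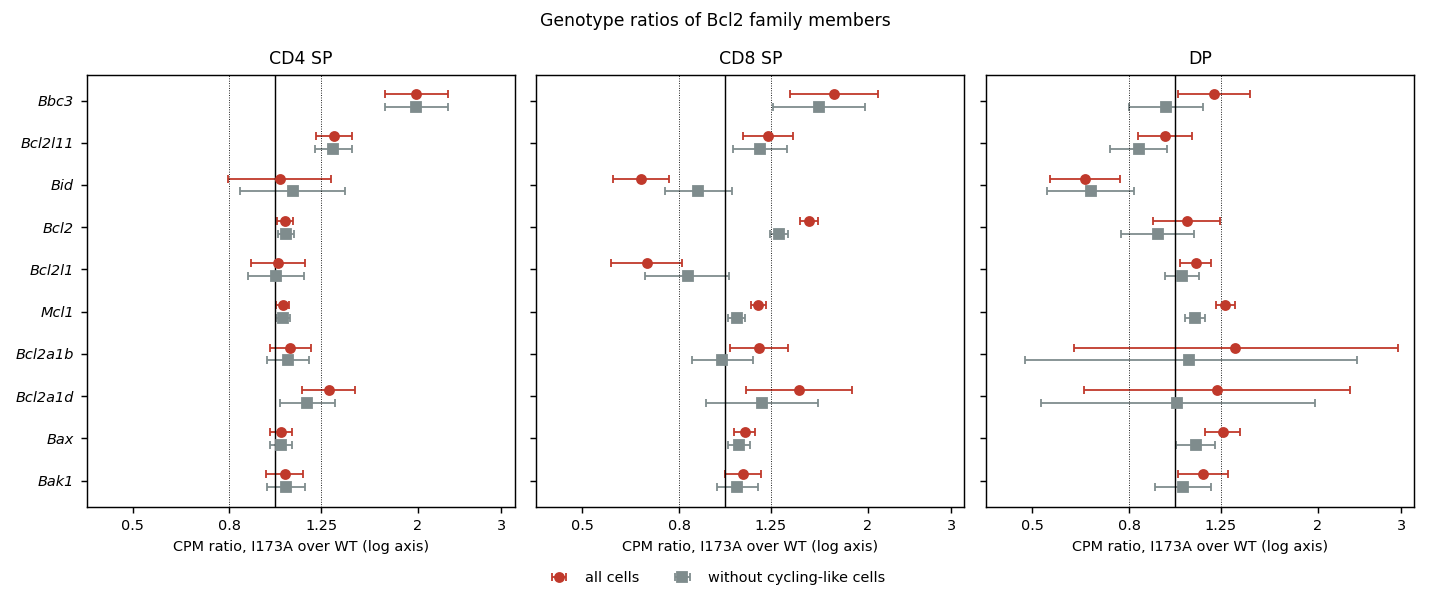
Ratio of I173A to WT (log axis) for each member in each gate, for all cells and without cycling cells, with 95% counting intervals; dotted lines mark 25% higher and 20% lower. Bbc3 stays past the upper line in both SP gates with and without cycling cells, while Mcl1 and Bax in DP cells and Bid and Bcl2l1 in CD8 SP cells are past the lines only with cycling cells included.

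Across the gates, Bcl2 and the A1 genes were high in SP cells and Bcl2l1 in DP cells, in both genotypes. CD4 SP over DP, the Bcl2 ratio was 8.37 (7.43 to 9.45) in I173A and 8.44 (7.54 to 9.48) in WT cells, and CD8 SP over DP it was 7.68 (6.82 to 8.68) in I173A and 5.41 (4.82 to 6.08) in WT cells. Bcl2l1 stood at 0.156 and 0.171 of its DP level in I173A and WT CD4 SP cells, and at 0.0742 and 0.120 of it in I173A and WT CD8 SP cells. Bcl2a1b was 23.6-fold and 29.3-fold above DP in I173A and WT CD4 SP cells, with wide intervals (14.4 to 41.5 and 17.4 to 53.8) since the DP counts were so low. Bid was at 0.293 and 0.186 of its DP level in I173A and WT CD4 SP cells, and Bbc3 at 0.375 and 0.267 of it in I173A and WT CD8 SP cells. Between the SP gates, CD4 SP cells were higher than CD8 SP cells in Bbc3 (2.26 in I173A, 1.94 in WT), Bcl2l11 (2.04 in I173A, 1.89 in WT), Bcl2a1b (2.03 in I173A, 2.23 in WT) and Bcl2a1d (4.02 in I173A, 4.43 in WT), and lower in Bid (0.387 in I173A, 0.252 in WT).

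At 2-fold, CD4 SP over DP, 3 of 10 members were higher (Bcl2, Bcl2a1b and Bcl2a1d) and 2 lower (Bid and Bcl2l1) in each genotype, where 7.94% of all genes were higher and 14.2% lower in I173A, and 8.59% higher and 15.4% lower in WT. CD8 SP over DP, 3 of 10 were higher (the same 3; 7.61%) and 2 lower (Bbc3 and Bcl2l1; 21.2%) in I173A, and 2 of 9 were higher (Bcl2 and Bcl2a1b; 6.88%) and 3 lower (Bbc3, Bcl2l11 and Bcl2l1; 19.1%) in WT. CD4 SP over CD8 SP, 5 of 10 were higher in I173A (Bbc3, Bcl2l11, Bcl2l1, Bcl2a1b and Bcl2a1d; 4.13%) and 2 in WT (Bcl2a1b and Bcl2a1d; 4.88%), and Bid was the 1 lower member in each (4.16% of all genes in I173A and 6.03% in WT). Gate and library cannot be told apart, since each gate was 1 library. Over genes of at least 20 CPM the median log2 ratio was -0.27 in I173A and -0.25 in WT for CD4 SP over DP, -0.39 in I173A and -0.36 in WT for CD8 SP over DP, and 0.14 in I173A and 0.13 in WT for CD4 SP over CD8 SP. Scaled to that median, Bcl2 in CD4 SP cells was 10.1-fold in I173A and 10.0-fold in WT above DP, and Bcl2l1 was at 0.188 of its DP level in I173A and 0.203 in WT. This scaling turned the direction of Bak1 between each SP gate and DP, of Mcl1 and Bbc3 between I173A CD4 SP and DP, of Bcl2l11 between WT CD4 SP and DP, of Bcl2 between I173A CD4 SP and CD8 SP and of Bak1 between WT CD4 SP and CD8 SP, so no direction is given for these.

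Unsupervised clustering of all 3 libraries, with the members and their pathway genes left out of the clustered genes, showed which cells held each member. The 27 clusters were numbered from 0, and 21 were named from marker genes; these names were rebuilt here and are not the study's own. Bcl2l1 was at 193 CPM in rearranging DP-like cluster 0 (3382 cells of both genotypes) and at 49.0 CPM in cluster 8, signalled-like cells of the DP gate. Bcl2 had the opposite order, with 12.2 CPM in cluster 0 and 106 CPM in cluster 8, and it was at 444 CPM in signalled-like cluster 3 of the CD4 SP gate. Bbc3 was at 39.2 CPM in cluster 0, at 3.07 CPM in cycling-like cluster 9 and at 2.82 CPM in cycling-like cluster 12. A cycling-like cluster of 55 DP cells, cluster 22, had 71.8 CPM (44.4 to 110).

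The A1 and BIM genes were high in few clusters. In agonist-selected-like cluster 6, Bcl2l11 was at 203 CPM, Bcl2a1b at 184 CPM, Bcl2a1d at 110 CPM and Bcl2l1 at 64.6 CPM, while Bcl2 was at 117 CPM. Bcl2a1d was among the 10 leading genes of this cluster, so its level there is a description. This cluster was 7.39% of the I173A and 6.53% of the WT CD4 SP cells and held 29.8% of the I173A and 38.0% of the WT Bcl2l11 UMIs of that gate, 28.6% of the I173A and 32.7% of the WT Bcl2a1b UMIs, and 30.8% of the I173A and 37.8% of the WT Bcl2a1d UMIs. Cluster 21, also agonist-selected-like and led by genes that include Foxp3, had Bcl2l11 at 14.2 CPM from 5 UMIs in 53 cells, beside Bcl2a1b at 165 CPM. Innate-like cluster 18 was highest for the A1 genes, with Bcl2a1b at 289 CPM and Bcl2a1d at 206 CPM. Its Bbc3 level was 41.4 CPM with both genotypes summed, but the genotypes differed. Bbc3 was at 68.9 CPM in I173A cells of this cluster, from 31 UMIs, and at 21.9 CPM in its WT cells, from 14 UMIs. Their counting intervals were apart. Macrophage or dendritic-like cells, which can also hold A1 RNA, numbered between 4 and 9 in any genotype and gate. The summed level of 9 macrophage or dendritic cell markers was 46.6 and 52.5 CPM in I173A and WT CD4 SP, 160 and 33.0 CPM in I173A and WT CD8 SP and 87.9 and 56.8 CPM in I173A and WT DP cells. Most of the CD8 SP sum came from genes of MHC class II presentation, with Cd74 at 1831 UMIs in I173A and 483 in WT cells and H2-Aa at 449 in I173A and 17 in WT cells, while Lyz2 had 6 UMIs in I173A and 13 in WT cells and Apoe 44 in I173A and 151 in WT cells. All 9 had UMIs in each group apart from Itgax, at 0 in WT CD8 SP cells and in I173A and WT DP cells, and Csf1r had between 1 and 9 UMIs. Macrophage or dendritic-like cluster 23 held 8.33% of the I173A and 0% of the WT Bcl2a1d UMIs of the CD8 SP gate. For Bcl2a1b it held 2.12% in I173A and 0% in WT CD8 SP, 18.8% in I173A and 7.14% in WT DP, and 0% in I173A and 0.24% in WT CD4 SP cells. Innate-like cluster 18 held 6.82% of the I173A and 0% of the WT Bcl2a1d UMIs of the CD8 SP gate, in 3 I173A and 2 WT cells. Beyond these shares, the part of such cells in the A1 values was not tested.

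**Figure D3:**
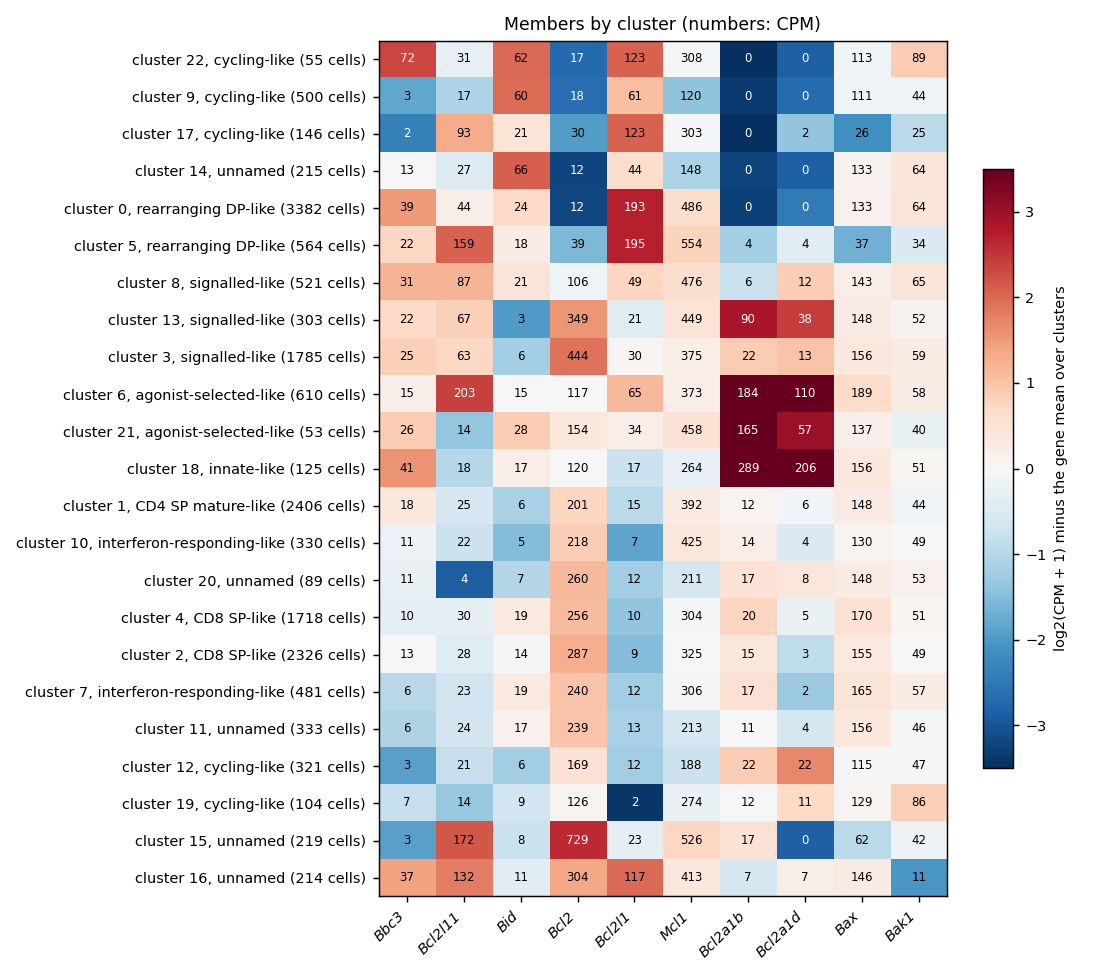
Levels of the members (columns) in the clusters of at least 50 cells (rows, numbered and with rebuilt names), with both genotypes summed; each cell prints the CPM, and its colour is log2(CPM + 1) minus the gene's mean over the clusters shown. Bcl2l1 is highest in DP-like clusters 0 and 5, Bcl2 is lowest in cluster 0 and unnamed cluster 14, and Bcl2a1b and Bcl2a1d are highest in innate-like cluster 18 and agonist-selected-like cluster 6.

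Within clusters of at least 50 cells of each genotype and 20 UMIs of the member, Bbc3 was higher in I173A in 4 of 5 clusters of the CD4 SP gate. In CD4 SP mature-like cluster 1 it was at 26.8 CPM in 1047 I173A cells and 10.6 CPM in 1347 WT cells (ratio 2.53, 1.95 to 3.30). In cluster 3 it was at 30.3 and 18.7 CPM in I173A and WT cells (1.62, 1.251 to 2.11), and in agonist-selected-like cluster 6 at 25.0 and 11.8 CPM in I173A and WT cells (2.13, 1.13 to 4.16). The exception was cluster 13, the cells led by Nr4a1, Egr2 and Egr1, with 20.9 and 22.8 CPM in I173A and WT cells (0.914, 0.470 to 1.74). In the CD8 SP gate it was higher in both clusters with enough counts, with 16.4 and 9.66 CPM in I173A and WT cells of cluster 2 (1.70, 1.24 to 2.35) and 12.1 and 8.49 CPM in I173A and WT cells of cluster 4 (1.42, 0.897 to 2.28). In the DP gate all 3 cluster ratios were below 1 and all 3 intervals included 1.

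Bcl2l11 was higher in I173A in 5 of 6 clusters of the CD4 SP gate, and 4 of the 6 intervals lay above 1. The largest ratios were 2.56 (1.37 to 4.89) in interferon-responding-like cluster 10 and 2.54 (1.74 to 3.75) in signalled-like cluster 13, where it was at 99.6 CPM in I173A and 39.2 CPM in WT cells. In agonist-selected-like cluster 6, where the gene was highest, I173A had 252 CPM and WT 270 CPM (0.933, 0.799 to 1.09). DP cells split by cluster: in rearranging DP-like cluster 0 the gene was at 38.0 CPM in I173A and 50.4 CPM in WT cells (0.755, 0.622 to 0.916), and in signalled-like cluster 8 at 96.7 and 64.8 CPM in I173A and WT cells (1.49, 1.03 to 2.21). Cluster 8 was 12.01% of I173A and 7.27% of WT DP cells and held 24.8% of the I173A and 7.36% of the WT Bcl2l11 UMIs of that gate. DP-like cluster 5, with a median of 1577 UMIs per cell, had a ratio of 0.625 (0.441 to 0.882). In the CD8 SP gate Bcl2l11 was higher in I173A in 3 of 6 clusters, with 1 interval above 1 and a median ratio of 1.02.

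Bcl2 was higher in I173A in 6 of 6 clusters of the CD8 SP gate, with ratios from 1.08 to 1.46 and 4 of 6 intervals above 1. In CD8 SP-like cluster 2 it was at 314 CPM in I173A and 258 CPM in WT cells (1.22, 1.14 to 1.30). In the CD4 SP gate the clusters went both ways: cluster 1 had 221 and 185 CPM in I173A and WT cells (1.20, 1.11 to 1.29), cluster 13 had 420 and 294 CPM in I173A and WT cells (1.43, 1.23 to 1.67), and cluster 3 had 396 and 493 CPM in I173A and WT cells (0.803, 0.757 to 0.851). The gate's ratio of 1.05 was thus a sum over clusters that differed in direction. In the DP gate Bcl2 was higher in I173A in 4 of 4 clusters, with ratios from 1.02 to 2.40 and 1 interval above 1. That interval was in cluster 5, from 26 I173A and 9 WT UMIs. Cluster 3 was 1.52% of I173A and 1.35% of WT DP cells. It held 15.6% of the I173A and 29.8% of the WT Bcl2 UMIs of the DP gate, and its part in that gate's ratio was not tested. Bcl2l1 in the CD8 SP gate was lower in I173A in 4 of 6 clusters and no interval lay below 1; in agonist-selected-like cluster 6 it was higher, at 56.7 and 33.0 CPM in I173A and WT cells (1.72, 1.01 to 2.98). Mcl1 ratios within clusters lay between 0.861 and 1.18 in all gates, and in DP cluster 0 Mcl1 and Bax ratios were 1.08 (1.02 to 1.14) and 1.04 (0.935 to 1.17). This was the lowest Bax ratio of the DP gate, where Bax was higher in I173A in 4 of 4 clusters. The highest was 1.45, and 1 interval lay above 1, in cycling-like cluster 9 (1.41, 1.09 to 1.81). Bid in DP cluster 0 was at 20.9 and 28.2 CPM in I173A and WT cells (0.741, 0.569 to 0.962).

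**Figure D4:**
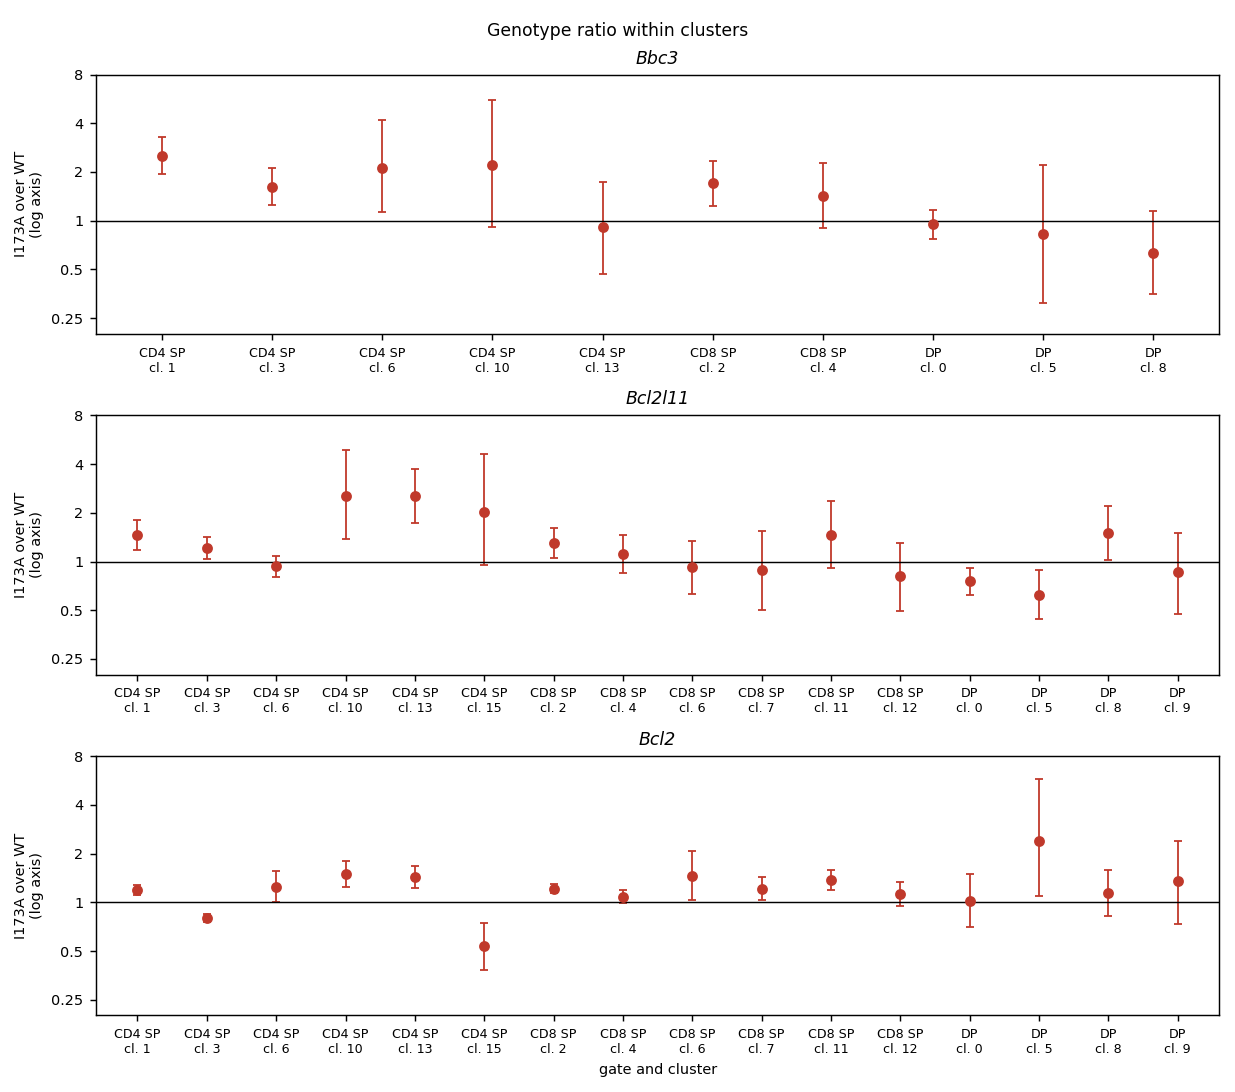
Ratio of I173A to WT (log axis) for Bbc3, Bcl2l11 and Bcl2 within each cluster that had at least 50 cells of each genotype and at least 20 UMIs of the member, with 95% counting intervals, by gate. Bbc3 and Bcl2l11 lie above 1 in most CD4 SP clusters, and Bcl2l11 lies on both sides of 1 in DP clusters. Bcl2 lies above 1 in all 6 CD8 SP and all 4 DP clusters, and on both sides of 1 in CD4 SP clusters.

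The α chain contigs of the TCR library split DP cells without use of the gene counts. The contigs also come from RNA of these cells, so a cell without one may still have rearranged its α chain. Among noncycling DP cells with a productive β chain contig, 916 I173A and 642 WT cells had a productive α chain contig. In 1201 I173A and 1067 WT cells no such contig was seen, and "with" and "without" an α chain refer to this. Bcl2 was at 66.1 CPM with and 13.6 CPM without an α chain in I173A cells (4.86, 3.53 to 6.79), and at 88.0 CPM with and 15.7 CPM without one in WT cells (5.59, 4.13 to 7.67). Much of the Bcl2 of the whole DP gate lay in few cells. Signalled-like cluster 3, most of whose cells were from the CD4 SP gate, held 15.6% of its I173A and 29.8% of its WT Bcl2 UMIs. Signalled-like cluster 8 held 40.5% of its I173A and 17.6% of its WT Bcl2 UMIs. The part of these clusters in the Bcl2 ratios was not tested. Bcl2l1 was lower in cells with an α chain, at 132 CPM with and 187 CPM without one in I173A (0.704, 0.620 to 0.799) and at 142 CPM with and 168 CPM without one in WT (0.842, 0.729 to 0.970). Bcl2l11 was higher in them, at 61.0 CPM with and 39.5 CPM without an α chain in I173A (1.55, 1.23 to 1.94) and at 66.6 CPM with and 51.9 CPM without one in WT (1.28, 1.02 to 1.61). Bid differed by genotype. In I173A it was at 20.2 CPM with and 20.6 CPM without an α chain (0.983, 0.686 to 1.40). In WT it was at 17.99 CPM with and 40.0 CPM without one (0.450, 0.304 to 0.649). This difference between genotypes was not tested. Unnamed cluster 14, which had Cdc6 and Ung among its leading genes, was not left out with the cycling cells. It held 4.23% of the I173A and 14.03% of the WT Bid UMIs of the whole DP gate. Its part in the Bid values with and without an α chain was not tested. Cells with an α chain were deeper, with median UMIs of 2965 with and 2736 without one in I173A and 3018 with and 2828 without one in WT.

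**Figure D5:**
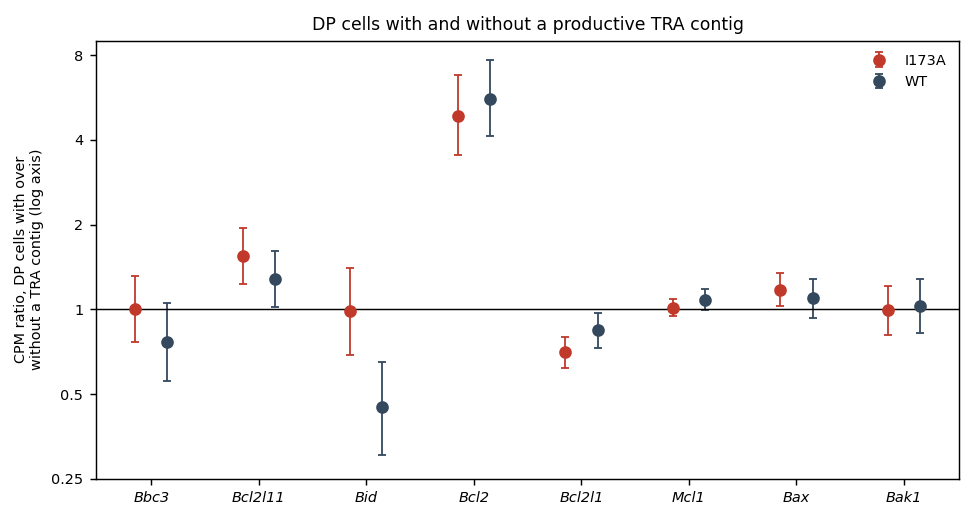
Ratio of CPM in noncycling DP cells with a productive TRA (α chain) contig to those without one (log axis), for I173A left of WT, with 95% counting intervals. Bcl2 lies at 4.86 in I173A and 5.59 in WT, Bcl2l1 lies below 1, and Bid lies below 1 in WT and near 1 in I173A.

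Over the 39 cluster-by-genotype sums of at least 50 cells, and among 6797 genes of at least 20 CPM, those whose log2(CPM + 1) was most like a member's were named by Pearson's r. For Bcl2 they were Galnt6 (r = 0.93), Gpr146, Pik3cd, Nlrc5 and Pacsin1, and for Bcl2l1 Dgkg (0.90), Gpr162, Glcci1, Ldlrad3 and Lig4. For Bcl2l11 they were Kdm6b (0.87), Ikzf3, Cdk17, Tnfaip3 and Foxp4, for Bcl2a1b Ndfip1 (0.89), Cd82, Icos, Relb and Gpr183, and for Bbc3 Zfpl1 (0.77), Ypel5, Abcb9, Tbc1d17 and Aup1. Between members, Bcl2a1b and Bcl2a1d had r = 0.83, Bcl2 and Bcl2l1 -0.59, and Bid and Bcl2 -0.69. These sums share libraries and differ in depth, so the values are descriptions.

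Other genes of the pathway were counted in 8 lists of 74 genes in all, with the same fold and 5 CPM, and are to be read beside the shares of all genes past it: 5.00% higher and 2.08% lower in CD4 SP, 10.6% higher and 10.9% lower in CD8 SP and 16.3% higher and 10.5% lower in DP cells, or, without cycling cells, 4.80% higher and 4.79% lower in CD8 SP and 8.78% higher and 5.77% lower in DP cells. Of 10 other BH3-only and effector relatives, 4 could be counted in CD4 SP (0 higher, 0 lower), 4 in CD8 SP (1 higher) and 5 in DP cells (2 higher); without cycling cells 2 of 5 were higher in CD8 SP and 2 of 5 in DP cells. Bmf, a BH3-only gene, was at 27.9 CPM in I173A and 17.5 CPM in WT DP cells (1.60, 1.31 to 1.95), and Bnip3 was the other one in DP (1.38, 0.982 to 1.94). Pmaip1, Bik, Hrk and Bok, and Bcl2l2 and the other A1 copies Bcl2a1a and Bcl2a1c among the antiapoptotic relatives, were under 5 CPM throughout. Bcl2l12 was the 1 gene of the 5 other antiapoptotic relatives that could be counted, and it was past the fold in no gate. Of 6 membrane partners and protein turnover genes, 0 were past the fold in CD4 SP and in DP cells and 1 was lower in CD8 SP cells, Vdac1, a channel of the outer mitochondrial membrane, at 161 and 215 CPM in I173A and WT cells (0.749, 0.715 to 0.785), which without cycling cells was not past the fold. Of the apoptosome and caspase genes, 0 of 14 were past the fold in CD4 SP, 3 of 13 were lower in CD8 SP, and 2 of 14 were higher and 1 lower in DP cells. Cycs, which encodes cytochrome c, was at 251 and 350 CPM in I173A and WT CD8 SP cells (0.717, 0.691 to 0.744). Without cycling cells 0 of 13 were lower in CD8 SP cells, and 4 of 14 were higher and 0 lower in DP cells. In DP cells Casp8, the initiator of the death receptor route, was at 80.7 and 57.7 CPM in I173A and WT cells (1.40, 1.251 to 1.56), and Casp9, the initiator of the mitochondrial route, at 9.12 and 5.34 CPM in I173A and WT cells (1.71, 1.19 to 2.46).

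Of 5 caspase inhibitors, 1 was higher, in DP cells: Birc3 at 34.5 and 27.2 CPM in I173A and WT cells (1.27, 1.08 to 1.502). Without cycling cells 0 of 5 were past the fold there. Among death receptors and ligands, 2 of 6 were higher in DP cells, with Fas, the receptor that engages caspase-8, at 181 and 142 CPM in I173A and WT cells (1.27, 1.18 to 1.37) and Tradd, an adaptor of TNF receptors, at 47.8 and 37.6 CPM in I173A and WT cells (1.27, 1.10 to 1.47), and 1 of 6 was higher without cycling cells. Of the 7 that could be counted in each SP gate, 0 were past the fold in CD4 SP and in CD8 SP cells. Of the survival cytokine receptors, 5 of 6 were higher in CD8 SP cells, where 10.6% of all genes were, and their median log2 ratio was 0.50. They included Il7r, whose signal is known to maintain BCL-2, at 196 and 132 CPM in I173A and WT cells (1.49, 1.42 to 1.56) and Il2rb at 132 and 85.9 CPM in I173A and WT cells (1.54, 1.45 to 1.63). Without cycling cells 2 of 6 were higher in that gate, and the median log2 ratio of the 6 was 0.29. The Il7r and Il2rb ratios given here are for all cells. In the CD4 SP gate 1 of 6 was higher with and without cycling cells, and in the DP gate 3 of 5 were higher with all cells and 1 of 5 without cycling cells. Of the transcription regulators, the CD4 SP gate had 1 of 16 higher and 1 lower, the CD8 SP gate 3 of 17 higher and 3 lower, and the DP gate 2 of 16 higher and 2 lower. Without cycling cells the CD8 SP gate had 2 of 16 higher and 1 lower, and the DP gate 1 of 16 higher and 2 lower. Nr4a1, an early gene of TCR signalling, was at 227 and 151 CPM in I173A and WT CD4 SP cells (1.502, 1.43 to 1.58), at 59.3 and 34.6 CPM in I173A and WT CD8 SP cells (1.71, 1.56 to 1.88) and at 50.001 and 29.4 CPM in I173A and WT DP cells (1.70, 1.46 to 1.97). Trp53, which encodes p53 and is named here after its values were seen, had ratios of 1.01, 1.02 and 1.09 in CD4 SP, CD8 SP and DP cells. These are ratios of RNA, and the part of p53 or of FOXO factors in the Bbc3 values was not tested.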

How the data were processed

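Thymocytes of I173A and WT mice, sorted by gate, were profiled with 5′ single-cell RNA, hashtag and TCR libraries. The authors deposited raw UMI counts per barcode for genes and hashtags, and contig tables for the TCR. The processing notes of the submitters name Cell Ranger 6.0.1 and the GRCm38 and mm10 builds, and the matrix header gives software version 3.1.0, per the file headers. The counting parameters are not given in the sources used here. The members and the gene lists were chosen with earlier results of these data known.

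A barcode was assigned to a hashtag with at least 10 counts of it and 4 times the count of each other hashtag. Barcodes with more than 1 hashtag were left out as doublets (381 for CD4 SP, 502 for CD8 SP and 496 for DP, or 4.20%, 5.43% and 5.72%). No doublet caller was run, so doublets of the same hashtag remain. Hashtag 5, whose genotype the labels do not give, was kept out of all comparisons. Cells with under 500 genes or over 10% mitochondrial UMIs were left out. Among barcodes assigned to I173A or WT, these were 40 for CD4 SP, 61 for CD8 SP and 74 for DP. Hashtag 5 barcodes went through the same filter and are not in these counts. The libraries held 60770018, 65934387 and 31269793 UMIs for CD4 SP, CD8 SP and DP.

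Counts were summed over the cells of a genotype and gate and divided by the sum of all genes to give CPM. Ratios have exact conditional binomial intervals. Their calculation was run on simulated Poisson counts. Those counts hold no variation between cells, mice or libraries, so the run cannot show how well the intervals cover such variation. A gene was counted at a mean of at least 5 CPM over the groups compared and at least 25% higher or 20% lower between genotypes or past 2-fold between gates. For clusters, counts of all hashtags were scaled to 10000 per cell and log-transformed, and 2000 variable genes (without the members, the pathway genes and TCR segments), 30 principal components, 15 neighbours and Leiden resolution 1 were used (scanpy 1.11.5, leidenalg 0.10.2, numpy 2.4.6, scipy 1.17.1, pandas 2.3.3, Python 3.11.15). A cluster was named where at least 3 markers of a type, and most of its marker list, were raised 1.5-fold. At least 1 marker also had to be among the 10 leading genes, and clusters with few UMIs per cell for their gates were not named. By these rules 6 of 27 clusters stayed unnamed. Cells of cycling-like clusters were taken as the cycling cells, and unnamed clusters with leading genes of DNA replication were not among them. TCR contigs were joined to cells by barcode. Promoter windows came from RefSeq on GRCm38.p6.

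All 10 members are reported in each gate and genotype. Of each pathway list, up to 4 genes from the top and 4 from the bottom of the ratios in a gate could be named, and for 5 members the 5 genes most like them. Alternatives were stricter and looser hashtag and cell filters, equal cell weights, other totals, a median scaling, other floors, equal cluster shares and leaving out cycling, non-T or high-mitochondrial clusters or unnamed clusters led by Ung.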

Additional observations from a re-analysis of the deposited data

Results flagged for a closer look

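Bcl2l1, which encodes BCL-XL, lay on opposite sides of 1 in different gates. Its ratio of I173A to WT was 1.11 (1.03 to 1.19) in DP cells, at 158 and 142 CPM in I173A and WT cells, and 0.684 (0.575 to 0.812) in CD8 SP cells, at 11.7 and 17.1 CPM in I173A and WT cells. Neither interval, which covers counting error only, included 1. With 1 sample per genotype and gate, the difference between the gates was not tested. Without cycling cells the ratios were 1.03 in DP and 0.833 in CD8 SP cells, and with unnamed clusters 11, 14 and 20 left out as well, a choice made after seeing the data, 0.988 in DP and 0.9505 in CD8 SP cells. Cycling cells held 14.7% of I173A and 28.4% of WT UMIs in the CD8 SP gate, and their part in the difference beyond these values was not tested.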

How the results depend on the processing

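No paired analysis was possible because each genotype had 1 sample per gate, and for the same reason no replicate could be left out. Ratios of members moved by under 1.5 times, except when unnamed clusters 11, 14 and 20 were left out with the cycling cells, an alternative chosen after seeing the data. Then Bid in CD8 SP cells, at 0.666 as reported for I173A over WT, had a ratio of 1.11, and in WT cells Bcl2a1b CD4 SP over DP was 19.3, Bcl2l1 CD8 SP over DP 0.0707, and Bid and Bcl2a1b CD4 SP over CD8 SP 0.443 and 1.47. Of the counts of members past a fold, 198 stayed within 1.5 times of the reported count and 30 did not. The cause of the other moves was not tested, apart from the floors, which change how many members are counted.

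In I173A over WT, the count of members higher in CD8 SP cells (3 as reported) was 1 with equal cluster shares and 1 with a floor of 20 CPM, and the count lower (2) was 0 without cycling cells, 1 with every cell weighing the same, 0 with equal cluster shares and 1 with a floor of 20 CPM. In DP cells the count higher (2) was 0 without cycling cells, with equal cell weights, with equal cluster shares and with the median scaling, 1 with a total without mitochondrial, ribosomal and TCR segment genes, and 1 without the clusters of over 2.5% mitochondrial UMIs, also chosen after seeing the data. The count lower in DP (1) was 2 with equal cell weights and 0 with equal cluster shares. Without the cycling cells and clusters 11, 14 and 20, the CD8 SP count was 1 higher (Bbc3) and 0 lower, and the DP count 0 higher. Bcl2a1d in CD8 SP cells turned from a ratio of 1.43 to 0.967 with equal cluster shares.

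Between gates, a floor of 20 CPM gave 1 lower member in I173A CD4 SP over DP (2 as reported), 1 higher in CD8 SP over DP in WT (2) and I173A (3), and, in CD4 SP over CD8 SP, 1 higher and 0 lower in WT (2 and 1) and 2 higher and 0 lower in I173A (5 and 1). CD4 SP over CD8 SP, the count higher was 1 in WT without cycling cells and with equal cell weights, and in I173A it was 3 without cycling cells, 3 without clusters 11, 14 and 20 as well, 3 with the reduced total and 2 with the median scaling.

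Over all alternatives the Bbc3 ratio lay between 1.94 and 2.08 in CD4 SP and between 1.45 and 1.72 in CD8 SP cells, that of Bcl2 in CD8 SP between 1.19 and 1.51 and that of Bcl2l11 in CD4 SP between 1.23 and 1.34. Depth limits the A1 genes in DP cells, where Bcl2a1b had 16 UMIs in I173A and 14 in WT cells.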

Other observations

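Cells with hashtag 5, of which the CD4 SP gate had 2829, the CD8 SP gate 2745 and the DP gate 2765, and for which the labels give no genotype, were set in no comparison. In them Bbc3 was at 14.99 CPM in CD4 SP, 7.54 CPM in CD8 SP and 28.6 CPM in DP cells. Bcl2l11 was at 44.9 CPM in CD4 SP, 24.5 CPM in CD8 SP and 65.6 CPM in DP cells, Bid at 8.86, 25.6 and 35.4 CPM in these gates, and Bcl2 at 280, 186 and 34.8 CPM. Bcl2l1 was at 24.8 CPM in CD4 SP, 14.4 CPM in CD8 SP and 136 CPM in DP cells, and Bcl2a1b at 43.5, 13.8 and 3.097 CPM in these gates. In the CD4 SP, CD8 SP and DP gates, Mcl1 was at 417, 262 and 434 CPM and Bcl2a1d at 25.6, 3.57 and 1.03 CPM. Bax was at 148, 153 and 110 CPM in these gates, and Bak1 at 52.7, 49.1 and 56.3 CPM.

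In clusters with few UMIs per cell and a high mitochondrial share, with I173A and WT cells summed, Bcl2l11 was above its level in cluster 0, and Bax was below it in clusters 5 and 15. In DP-like cluster 5 (median 1577 UMIs, 2.89% mitochondrial) Bcl2l11 was at 159 CPM and Bax at 36.9 CPM. Unnamed cluster 15 (4.51% mitochondrial) had Bcl2l11 at 172 CPM, Bax at 61.9 CPM and Bcl2 at 729 CPM. In unnamed cluster 16 (median 1133 UMIs, 4.87% mitochondrial) Bcl2l11 was at 132 CPM and Bax at 146 CPM. Rearranging DP-like cluster 0 (median 2808 UMIs, 1.81% mitochondrial) had Bcl2l11 at 43.6 CPM and Bax at 133 CPM. Clusters 5, 15 and 16 thus had both a higher mitochondrial share and more Bcl2l11 than cluster 0, but their Bcl2l11 levels did not follow the order of that share. Agonist-selected-like cluster 6, at 1.64% mitochondrial, had Bcl2l11 at 211 CPM in WT cells, against 50.3 CPM in WT cells of cluster 0. The part of the mitochondrial share in the Bcl2l11 levels was not tested.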
